A study of Mus musculus with 7 samples.

Results

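Glucose catabolism and nutrient uptake were examined in naive CD8 T cells in which, per the labels, expression of Lck, the first kinase of T cell receptor signalling, was turned off, through 36 genes of glycolysis, the pentose phosphate pathway and the carriers of glucose, lactate, amino acids and iron. The members were chosen by gene name among the non-control probes of the array and ordered by metabolic step. All 36 were on the array, with 61 probes on 79 spots, among 34797 gene names, and all 36 were among the 18231 genes that passed the filter on dim probes. The cells were sorted from mouse lymph nodes for CD8b and low CD44, and mice of both groups were OT-1het, with a transgenic receptor for an ovalbumin peptide, and Rag-/-, which prevents rearrangement of any other receptor. The Lck-off group held 4 samples from mice that also lacked a working Lck gene (Lck-/-) and expressed a knocked-in Lck while fed doxycycline, with the drug withdrawn from the diet for 7 days before sampling. The WT group held 3 samples with Lck intact. The promoter that drives the inducible Lck, the diet of the WT mice, the ages and the number of animals per sample are not stated in the labels, and genotype, diet and loss of Lck cannot be told apart in this design, which has no Lck-/- mice kept on doxycycline. Samples are described as biological replicates, with no word on what separates them, so p-values measure the spread between these samples. In sorted bulk RNA, it cannot be told apart whether fewer cells held a transcript or each cell held less.

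Each sample was hybridised to 1 single-colour Agilent array, and all 7 arrays lay on 1 slide in 2 rows. Levels are log2 intensities relative to the 75th percentile of the array, so 0 is the intensity that 25% of the probes exceed. Differences are in log2 units, Lck-off minus WT, and ± is the SD over 4 Lck-off or 3 WT arrays unless SE is written, and a call is an adjusted p under 0.05 by limma with Benjamini-Hochberg adjustment over all 18231 genes, two-sided. No spot was saturated, 42.5% to 48.6% of an array's probes read well above background, and the 75th percentiles ran from 212 to 243 intensity units in Lck-off and from 208 to 235 in WT. The number of arrays limits the precision. Lck itself read 8.52, 8.83, 8.60 and 8.55 in Lck-off cells, against 8.99, 9.02 and 8.98 in WT cells, a difference of -0.37 (SE 0.09, adjusted p = 0.0493 by limma). Its call was kept in 1 of the 7 fits that each omitted 1 array, the fit that omitted Lck-off replicate 2 (adjusted p = 0.0149). Whether the probe lies within the disrupted part of the gene is not known from the labels, so it is a weak check of them. All 8 markers of CD8 T cells were well above background on each array, and Lat was called higher in Lck-off (0.27), a call that ended whichever array was omitted (adjusted p by limma 0.0695 to 0.136). Of the B cell list, 2 to 3 markers were detected on each array, with summed levels of 11.8 to 14.7 times the 75th percentile in Lck-off and 12.1 to 14.2 times in WT; Cd79b was the brightest of those tested (3.62 in Lck-off, 3.70 in WT), and Ebf1, Ms4a1 and Pax5 were detected on no array. Of 13 markers of macrophages, monocytes and neutrophils, 8 to 12 were detected per Lck-off array and 5 to 8 per WT array, with summed levels of 51.1 to 62.5 in Lck-off and 41.2 to 58.4 in WT. All 8 tested had positive differences (median 0.65), and 1, C1qb, was called higher (0.59), a call kept only when Lck-off replicate 4 was omitted (adjusted p by limma otherwise up to 0.144). The dendritic cell list summed to 254 to 315 in Lck-off and 245 to 266 in WT, and Clec9a was detected on no array. Of its 6 tested markers 5 had positive differences, among them H2-Ab1, H2-Eb1 and Cd74 at 1.40, 1.26 and 1.12. The other 1 was negative, at -0.69. By limma 0 of 6 were called (2 at an unadjusted p under 0.05). The red cell list summed to 1.43 to 3.93 in Lck-off and 1.08 to 2.92 in WT, and Alas2 was detected on no array. Of its 4 tested markers Car2 was called lower (-1.13, adjusted p = 0.00863 by limma). The other 3 had positive differences, up to 1.19, and were not called. The stroma and vessel list summed to 24.4 to 30.4 in Lck-off and 42.6 to 51.1 in WT. Of its 4 tested markers Vim, which T cells also express, was called lower (-0.79). The other 3 had positive differences, up to 0.59, and were not called. Cdh5, Col3a1 and Pdpn were detected on no array. The part of other cells in the results was not tested.

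Glycolysis splits glucose into pyruvate, yielding ATP, NADH and carbon skeletons, and activated T cells use it heavily while naive T cells use little. The pentose phosphate pathway branches off at glucose 6-phosphate and returns NADPH and ribose phosphate for nucleotides. Naive T cells keep their carriers for glucose, amino acids and iron low until the T cell receptor, through Myc, mTOR and HIF-1, raises them. Txnip acts the other way: it promotes the removal of the glucose carrier GLUT1 from the cell surface, and its gene is switched on by MondoA, a factor that senses glucose 6-phosphate.

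Of the 36 members, 6 fell, 1 rose and 29 did not pass the test. Over all genes tested, 8.38% were called, 4.57% lower and 3.8% higher in Lck-off. Aldoc, a minor aldolase isoform best known from brain, fell to 32.9% of the WT level (95% confidence interval 25.2% to 42.9%), and Slc16a3, the lactate exporter MCT4, to 48.3% (38.1% to 61.2%). Tfrc, the transferrin receptor, fell to 65% (53.8% to 78.5%), the isomerase gene Tpi1 to 74.9%, the glutamine carrier gene Slc38a1 to 77.3% and the transketolase gene Tkt to 80.9%, while Txnip rose to 138% of WT (121% to 158%). The median difference of the members was -0.15, against -0.01 over all genes tested, and 28 of 36 were negative, against 51.7% of all genes. The groups did not overlap on 15 members, against 21.8% of all genes: Lck-off arrays were all lower on 12 (12% of all genes) and all higher on 3 (9.8%).

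**Figure D1:**
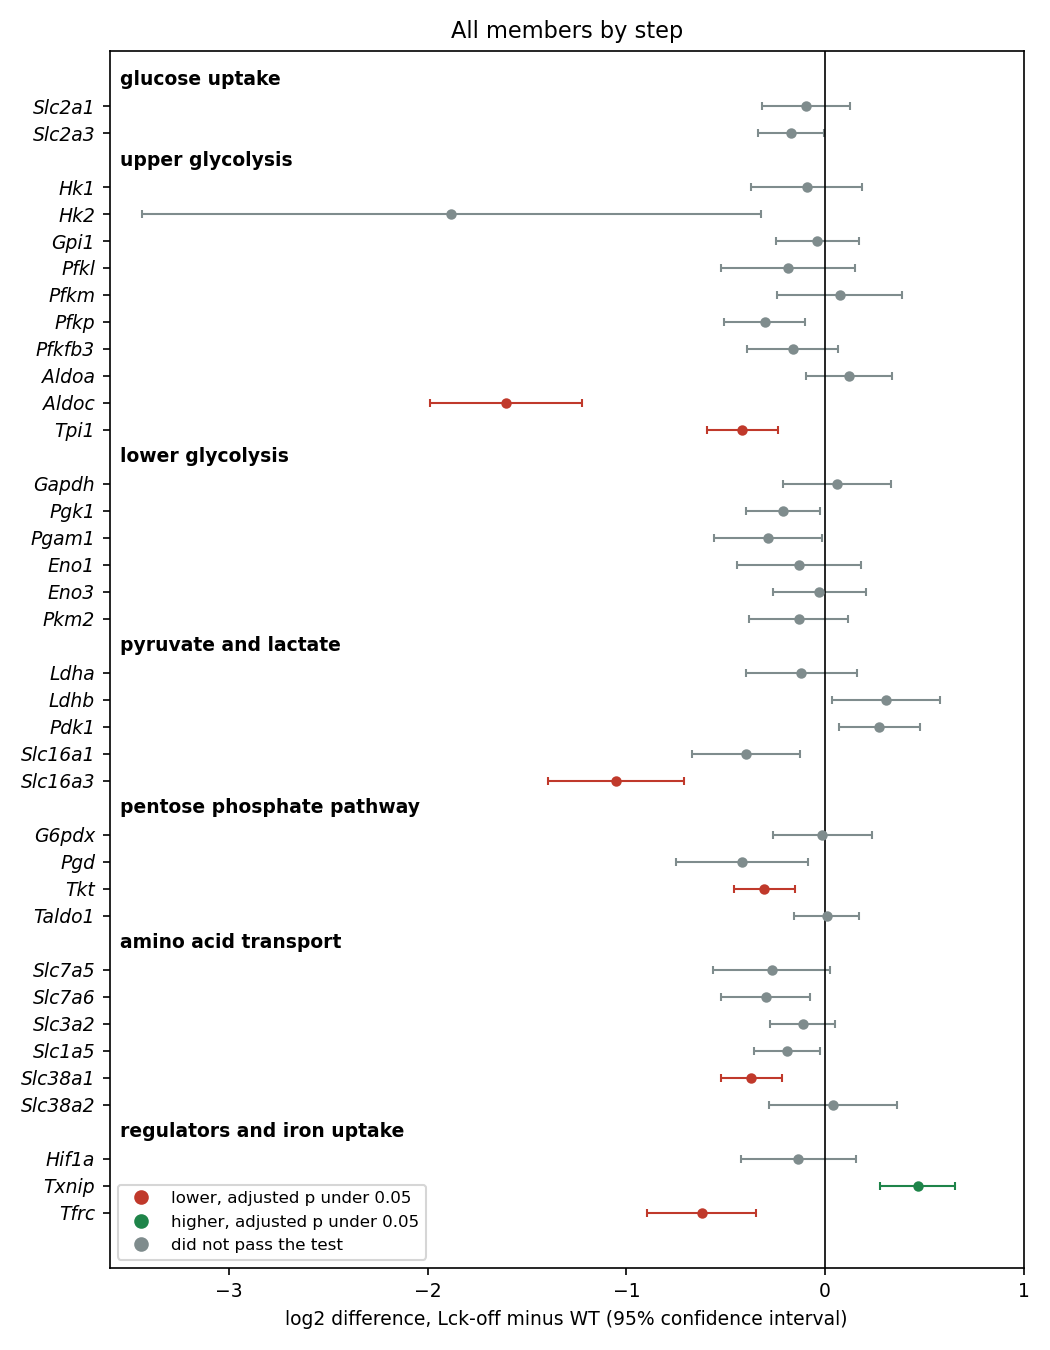
Log2 difference (Lck-off minus WT) of each of the 36 members, with its 95% confidence interval, ordered by metabolic step from top to bottom; red marks a fall and green a rise past the threshold, grey the 29 members that did not pass. Aldoc and Slc16a3 lie at -1.60 and -1.05, Txnip alone lies to the right among called members, and the interval of Hk2 is the widest.

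The promoters of 3 of the called members are shown because they are textbook targets of the factors named above, Slc16a3 and Aldoc of HIF-1 and Txnip of MondoA. They are the 250 bases before the start site on the gene's strand, from RefSeq (GRCm38.p6), 5′ to 3′. Txnip lies on the plus strand of chromosome 3, chr3:96557707-96557956. Capitals mark a match to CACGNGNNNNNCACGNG, a pair of E-box-like sites 5 bases apart and read in the same direction. MondoA and its relative ChREBP bind paired E-box-like sites. Pairs in other arrangements were not searched for, so the counts below cover this pattern alone.
Txnip: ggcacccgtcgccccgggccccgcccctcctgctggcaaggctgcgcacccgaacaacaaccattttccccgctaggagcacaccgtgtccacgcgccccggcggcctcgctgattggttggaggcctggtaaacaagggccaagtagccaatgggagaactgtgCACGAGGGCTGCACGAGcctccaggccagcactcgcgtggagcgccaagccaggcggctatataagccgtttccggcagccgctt
The other sequences are on the plus strand of chromosome 11, at chr11:78322823-78323072 and chr11:78323948-78324197 for the 2 start sites of Aldoc and at chr11:120948817-120949066 for Slc16a3. Capitals mark ACGTG or GCGTG, the core to which HIF-1 binds, on either strand.
Aldoc, first start site: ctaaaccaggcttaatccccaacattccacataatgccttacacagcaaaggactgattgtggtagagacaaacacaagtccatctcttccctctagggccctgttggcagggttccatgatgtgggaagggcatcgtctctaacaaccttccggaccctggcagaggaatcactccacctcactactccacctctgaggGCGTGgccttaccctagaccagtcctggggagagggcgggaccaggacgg
Aldoc, second start site: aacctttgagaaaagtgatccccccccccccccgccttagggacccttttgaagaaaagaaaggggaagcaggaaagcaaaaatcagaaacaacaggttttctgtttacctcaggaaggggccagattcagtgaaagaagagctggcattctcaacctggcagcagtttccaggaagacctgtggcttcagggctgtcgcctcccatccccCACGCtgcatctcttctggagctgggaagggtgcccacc
Slc16a3: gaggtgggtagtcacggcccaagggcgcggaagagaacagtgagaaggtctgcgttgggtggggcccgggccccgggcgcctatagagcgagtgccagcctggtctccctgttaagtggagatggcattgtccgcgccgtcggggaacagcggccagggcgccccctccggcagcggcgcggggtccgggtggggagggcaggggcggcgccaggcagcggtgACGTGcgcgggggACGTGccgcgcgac
The paired site began 85 bases before the start of Txnip. Among 27025 promoters, 1 a gene and searched on both strands, 14 held it (0.0518%), and of the 32 members with a promoter in the table Txnip alone did. Slc16a3 held ACGTG 2 times, at -27 and -14, and each Aldoc start site held GCGTG or its complement once, at -50 and -39. One or the other HIF core occurred in 26 of the 32 member promoters, against 38.6% of all promoters. Among the other members called lower, Tkt and Tfrc held a core and Tpi1 held neither. Ldha, Pgk1, Hk2 and Slc2a1, which were not called, each held ACGTG, and the uncalled Gpi1 and Slc38a2 held neither core. Txnip also holds GCGTG on one strand or the other at -160 and -51, left in lower case. Single E-boxes, CACGTG, which contain ACGTG, were in 4 of 32 member promoters, against 6.05% of all. These matches are a description of the letters and do not show binding.

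At the entry of glucose neither carrier passed the test. Slc2a1, which encodes GLUT1, read 2.68, 2.49, 2.62 and 2.56 in Lck-off and 2.66, 2.54 and 2.84 in WT, overlapping groups with a difference of -0.10 (95% confidence interval -0.32 to 0.12, adjusted p = 0.649 by limma). Slc2a3, which encodes the high-affinity carrier GLUT3, read 2.98, 2.82, 2.83 and 2.85 in Lck-off and 3.00, 3.03 and 3.08 in WT. Its Lck-off arrays lay just below the WT arrays, with a difference of -0.17 (SE 0.07, adjusted p = 0.219).

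In the upper part of glycolysis, from hexokinase to triose phosphate, 2 of 10 genes fell and 8 did not pass. Aldoc read -1.81, -1.31, -1.60 and -1.79 in Lck-off, against -0.01, 0.22 and -0.28 in WT. The highest Lck-off array lay well below the lowest WT array, and the difference was -1.60 (SE 0.16, adjusted p = 0.00164 by limma). Its single probe lies on the plus strand of chromosome 11 at 78140198 to 78140257 (mm9) and begins 1637 bases into the transcript. Its difference was -1.18 in slide row 1, -1.90 in slide row 2, -1.10 with normexp background correction and -1.03 in the authors' deposited table. The main aldolase gene, Aldoa, averaged 8.10 ± 0.10 in Lck-off and 7.98 ± 0.13 in WT, a difference of 0.12 (adjusted p = 0.542).

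Tpi1, which interconverts the products of aldolase, read 3.24, 3.31, 3.14 and 3.30 in Lck-off and 3.61, 3.63 and 3.75 in WT. No array overlapped, and the difference was -0.42 (SE 0.08, adjusted p = 0.0172 by limma). A second Tpi1 probe, at base 634 of the transcript instead of 1204, gave -0.53 (adjusted p = 0.0339 over all probes), with 1.17, 1.12, 1.36 and 1.46 in Lck-off and 1.86, 1.66 and 1.90 in WT. Omitting Lck-off replicate 3, WT replicate 2 or WT replicate 3 ended the call of the first, at adjusted p = 0.0521, 0.0575 and 0.0616.

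The gatekeeping kinases of upper glycolysis did not pass. Hk2, the hexokinase induced on T cell activation, was close to background: it read -5.58, -6.02, -3.09 and -5.52 in Lck-off and -3.44, -3.06 and -3.01 in WT, and was well above background on 1 of 4 and 2 of 3 arrays. Lck-off replicate 3 lay among the WT arrays, and the difference was -1.88 (SE 0.66, adjusted p = 0.153 by limma). It was -0.32 with normexp background correction and -0.27 in the authors' deposited table. Lck-off replicate 3 was the Lck-off array that detected the probe; omitting it gave -2.54 and a call, but against 3 arrays not well above background, so neither the size nor that call can be relied on. Pfkp, the platelet-type phosphofructokinase that T cells express, read 2.32, 2.45, 2.36 and 2.37 in Lck-off, below 2.62, 2.57 and 2.85 in WT, with a difference of -0.30 (adjusted p = 0.0861). A second Pfkp probe gave -0.34 (adjusted p = 0.23 over all probes). Pfkfb3, which makes the allosteric activator of phosphofructokinase, read 2.48, 2.34, 2.32 and 2.36 in Lck-off and 2.46, 2.42 and 2.73 in WT, and the groups overlapped (-0.16, adjusted p = 0.412). The remaining genes, Hk1, Gpi1, Pfkl and Pfkm, had differences between -0.19 and 0.07.

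In the lower part of glycolysis, from glyceraldehyde phosphate to pyruvate, 0 of 6 genes passed by limma and 2 had an unadjusted p under 0.05. The lowest adjusted p was that of Pgk1, phosphoglycerate kinase, which read 5.50, 5.63, 5.41 and 5.45 in Lck-off and 5.70, 5.64 and 5.79 in WT. The Lck-off arrays lay below the WT arrays, narrowly, and the difference was -0.21 (SE 0.08, adjusted p = 0.182 by limma). Its only probe is placed on chromosome 3 (57906830 to 57906894, mm9), while the gene is on chromosome X, so its value is uncertain. Pkm2, the pyruvate kinase gene now named Pkm, read 5.78, 5.82, 5.54 and 5.53 in Lck-off and 5.77, 5.71 and 5.93 in WT (-0.13, adjusted p = 0.557). Pgam1 averaged 4.57 ± 0.12 in Lck-off and 4.85 ± 0.20 in WT (-0.29, adjusted p = 0.207), and the enolase genes Eno1 and Eno3 differed by -0.13 and -0.03. Gapdh had 8 probes, all well above background on each array, whose differences ran from -0.09 to 0.10; the brightest, which stands for the gene here, is placed on chromosome 7 and another on chromosome 8, while the gene is on chromosome 6.

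Of the 5 genes that handle pyruvate and lactate, Slc16a3 fell and 4 did not pass. Slc16a3 read -1.56, -1.37, -1.41 and -1.83 in Lck-off, against -0.54, -0.26 and -0.68 in WT. The groups did not overlap, and the difference was -1.05 (SE 0.15, adjusted p = 0.00529 by limma). Its probe covers 120820023 to 120820082 of chromosome 11 (mm9). A second probe, at 120820030 to 120820089, gave -0.99 (adjusted p = 0.00222 over all probes) and shares most of its target with the first. In slide row 1 the difference was -0.71 and in slide row 2 -1.30; it was -0.69 with normexp background correction and -0.65 in the authors' deposited table. Slc16a1, the other lactate carrier of T cells (MCT1), read -1.62, -1.94, -1.67 and -1.73 in Lck-off and -1.14, -1.42 and -1.47 in WT; the Lck-off arrays were all lower, with a difference of -0.40 (SE 0.12, adjusted p = 0.0889).

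Ldha, the lactate dehydrogenase subunit favoured for making lactate, read 8.08, 8.49, 8.24 and 8.19 in Lck-off and 8.28, 8.30 and 8.53 in WT, and the groups overlapped (-0.12, adjusted p = 0.658 by limma). Its 2 other probes gave -0.26 and -0.20. Ldhb, the subunit of oxidative tissues, averaged 3.09 ± 0.19 in Lck-off and 2.79 ± 0.08 in WT, with each Lck-off array above each WT array (0.31, adjusted p = 0.181). Pdk1, the kinase that blocks pyruvate dehydrogenase, averaged 3.15 ± 0.13 in Lck-off and 2.87 ± 0.03 in WT, also without overlap (0.27, adjusted p = 0.117), and passed without Lck-off replicate 2 (0.33, adjusted p = 0.0425).

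In the pentose phosphate pathway 1 of 4 genes fell. Tkt, the transketolase that links the pathway back to glycolysis, read 5.94, 6.03, 5.96 and 5.94 in Lck-off and 6.22, 6.29 and 6.30 in WT. The arrays of each group lay close together, and the difference was -0.31 (SE 0.06, adjusted p = 0.0303 by limma), -0.31 within row 1 and -0.32 within row 2. The call was kept without Lck-off replicate 2 (adjusted p = 0.0384) and ended without any other array: the adjusted p was 0.0667, 0.0912 and 0.0937 without Lck-off replicates 1, 3 and 4, and 0.0658, 0.116 and 0.0956 without WT replicates 1, 2 and 3. Taldo1, the transaldolase of the same non-oxidative branch, averaged 6.95 ± 0.07 in Lck-off and 6.94 ± 0.04 in WT. Of the oxidative branch, G6pdx, the rate-limiting dehydrogenase, read 3.66, 3.66, 3.36 and 3.40 in Lck-off and 3.44, 3.54 and 3.62 in WT (-0.01, 95% confidence interval -0.26 to 0.23). Pgd, the next enzyme, averaged 2.96 ± 0.19 in Lck-off and 3.37 ± 0.22 in WT (-0.42, adjusted p = 0.138), and was called with normexp background correction (-0.40, adjusted p = 0.0314) and by limma on the authors' deposited table (-0.40, adjusted p = 0.0118).

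Among the 6 amino acid carriers 1 fell and 5 did not pass. Slc38a1, a sodium-coupled glutamine carrier, read 4.96, 4.91, 4.92 and 4.92 in Lck-off and 5.27, 5.25 and 5.38 in WT. The groups did not overlap, with a difference of -0.37 (SE 0.07, adjusted p = 0.0143 by limma). Its other probes, further along the transcript, gave -0.37 (adjusted p = 0.0837 over all probes) and -0.42 (adjusted p = 0.036 over all probes). Omitting Lck-off replicate 3, Lck-off replicate 4 or WT replicate 3 ended the call, at adjusted p = 0.0516, 0.0513 and 0.0509. Slc38a2, its stress-induced relative, differed by 0.04 (95% confidence interval -0.28 to 0.36).

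The leucine carrier LAT1, encoded by Slc7a5, works in a pair with the Slc3a2 chain. Slc7a5 averaged 0.82 ± 0.10 in Lck-off and 1.09 ± 0.25 in WT (-0.27, adjusted p = 0.278 by limma), and a second probe nearer the start of the transcript gave 0.32 (SE 0.25), so its direction is not settled. Slc3a2 averaged 5.09 ± 0.07 in Lck-off and 5.20 ± 0.06 in WT (-0.11, adjusted p = 0.435). Slc1a5, the glutamine carrier ASCT2, averaged 4.09 ± 0.05 in Lck-off and 4.28 ± 0.07 in WT (-0.19, adjusted p = 0.167), and Slc7a6, which exchanges basic and neutral amino acids, -0.24 ± 0.12 in Lck-off and 0.05 ± 0.12 in WT (-0.30, adjusted p = 0.119). On both genes the Lck-off arrays all lay below the WT arrays.

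Of the regulators and the iron receptor, Txnip rose, Tfrc fell and Hif1a did not pass. Txnip, whose promoter with the paired site is shown above, read 5.47, 5.44, 5.44 and 5.56 in Lck-off and 4.91, 5.15 and 4.97 in WT. All Lck-off arrays were higher, by 0.47 on average (SE 0.08, adjusted p = 0.0136 by limma), 0.47 within row 1 and 0.48 within row 2. A second Txnip probe gave 0.33 (adjusted p = 0.215 over all probes), with 3.11, 2.87, 3.06 and 3.28 in Lck-off and 2.56, 2.95 and 2.76 in WT, where the groups overlapped. The call ended without WT replicate 1 (0.42, adjusted p = 0.0513) or WT replicate 3 (0.45, adjusted p = 0.0547), and with the mean of both probes (0.40, adjusted p = 0.06).

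Tfrc, which brings iron into dividing cells, read 0.18, -0.12, -0.27 and -0.05 in Lck-off and 0.55, 0.65 and 0.47 in WT. No array overlapped, and the difference was -0.62 (SE 0.12, adjusted p = 0.0186 by limma), -0.66 within row 1 and -0.54 within row 2. This probe is the mean of 10 spots. A second kept probe gave -0.35 (adjusted p = 0.303 over all probes), and the call ended with the mean of both (-0.49, adjusted p = 0.0543), or with Lck-off replicate 4, WT replicate 1 or WT replicate 2 omitted, at adjusted p = 0.0551, 0.0616 and 0.0762. Hif1a, the oxygen-regulated subunit of HIF-1, averaged 1.2 ± 0.12 in Lck-off and 1.34 ± 0.22 in WT (-0.13, adjusted p = 0.624).

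**Figure D2:**
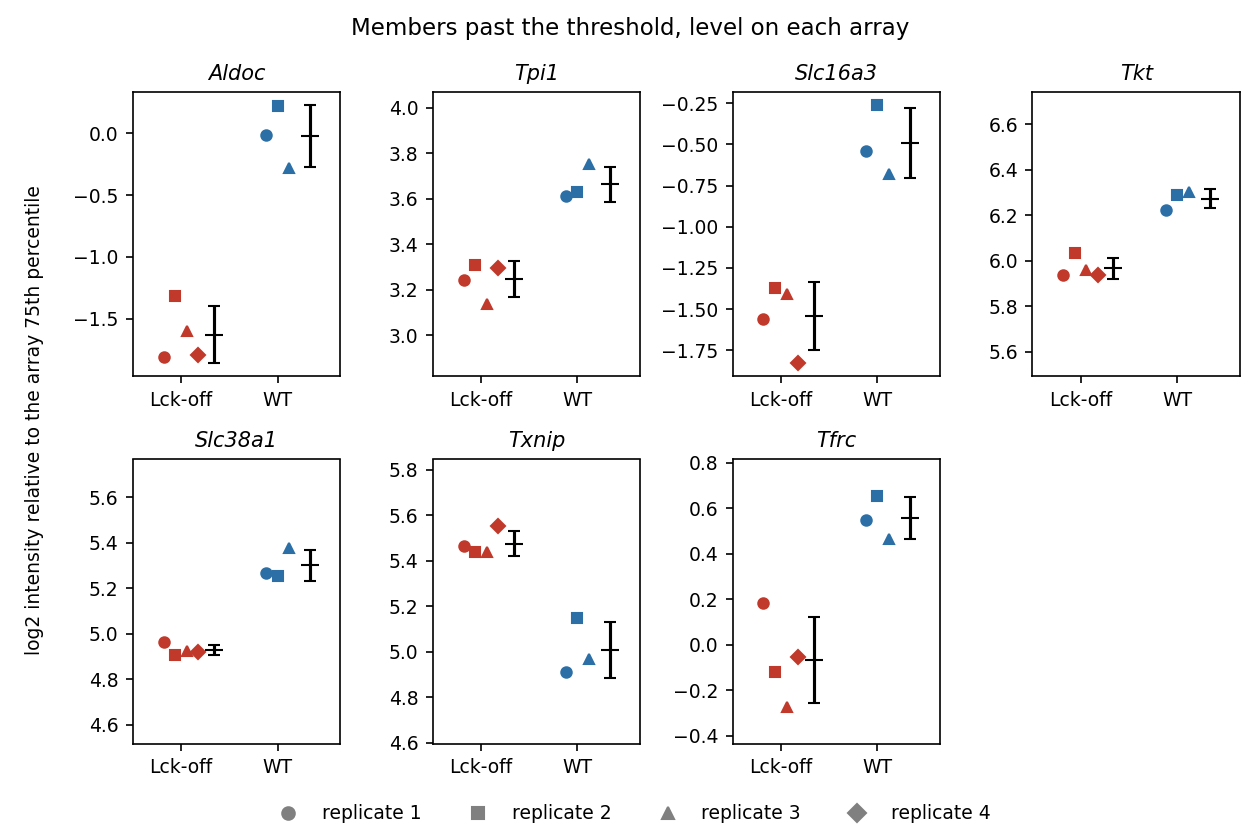
Level of the 7 called members on each array, as log2 intensity relative to the 75th percentile of the array (each panel has its own axis, which does not start at 0); red Lck-off on the left, blue WT on the right, symbols mark the replicate and black bars the mean and SD. In every panel the 4 Lck-off arrays lie on one side of the 3 WT arrays, with Txnip the only gene higher in Lck-off.

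WT replicate 3 stood out among the arrays on these genes. It was the highest of the 7 arrays on 19 of the 36 members, against 18.5% of all genes, and Lck-off replicates 3 and 4 were the lowest on 11 and 10 members, against 10.3% and 17.8% of all genes. Among called members WT replicate 3 was the highest for Tpi1, Tkt and Slc38a1, and the lowest WT array for Aldoc, Slc16a3 and Tfrc. Without it the members' median difference was -0.10 in place of -0.15, 3 members were lower and 0 higher by limma. With the slide row as a block 6 members were lower and 1 higher, as without the block.

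Several members had more than 1 probe, which gives a second reading on the same RNA. Of the 13 members with several kept probes, 10 had all probes on the same side of 0, and Hk1, Gapdh and Slc7a5 had probes on both sides. The probes of a gene share the sample and sometimes the target, so they are not replicates.

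**Figure D3:**
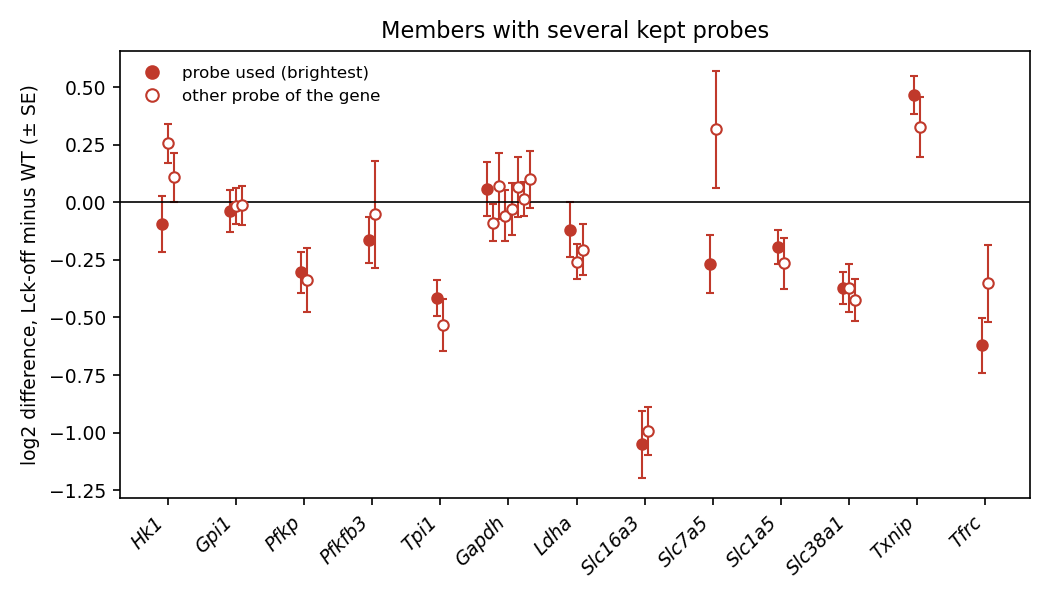
Log2 difference (Lck-off minus WT, bars are SE) of every kept probe of the 13 members with several kept probes; filled points are the probes that stand for the gene, open points the others. Both Slc16a3 probes lie near -1, all 3 Slc38a1 probes between -0.42 and -0.37, and the 2 Slc7a5 probes on opposite sides of 0.

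Genes next to these in the pathway were taken from 9 lists of further isoenzymes, carriers and regulators. Of 155 tested, 13 fell and 5 rose (11.6%, against 8.38% of all genes). Of 18 other glycolytic isoenzymes and sugar-handling genes, Pgm2, named so on the array and of the phosphoglucomutase family, fell by 0.56 (adjusted p = 0.00662 by limma) and the galactokinase gene Galk1 by 0.44 (a call that ended, just above 0.05, without WT replicate 2), and 0 rose. Of 12 other glucose and monocarboxylate carriers, 1 rose: Slc16a5, of the MCT family, averaged 4.90 ± 0.11 in Lck-off and 4.01 ± 0.05 in WT (0.89, adjusted p = 0.00116). Of 14 genes of pyruvate entry to mitochondria, only Pcx, pyruvate carboxylase, changed, higher by 0.82 (adjusted p = 0.00959). None of the 11 other pentose and ribose phosphate genes and none of the 13 iron genes passed by limma, with 1 and 4 at an unadjusted p under 0.05.

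Among 32 genes of Myc, mTOR, AMPK and MondoA regulation, the 2 that rose were arrestin-domain relatives of Txnip. Arrdc4, like Txnip a MondoA target, read -1.48, -1.09, -0.75 and -0.64 in Lck-off and -2.37, -2.09 and -2.97 in WT (1.49, SE 0.27, adjusted p = 0.0153 by limma). The difference of Arrdc4 was 0.68 with normexp background correction and 0.69 in the authors' deposited table. Arrdc3 read -1.52, -1.40, -1.15 and -1.05 in Lck-off and -2.08, -1.90 and -1.84 in WT (0.66, adjusted p = 0.0243), but stayed called only when Lck-off replicate 1 or 2 was omitted, with adjusted p between 0.0556 and 0.0825 for each other omission. The difference of Arrdc3 was 0.32 with normexp and 0.36 in the authors' deposited table. For Txnip and both Arrdc genes the Lck-off arrays were all higher than the WT arrays. The pattern of the paired site found before Txnip was absent from the searched promoters of Arrdc4 and Arrdc3. Other paired arrangements were not searched for, so this does not show that they lack a MondoA site. Arrdc4 held a single E-box, CACGTG, at -193, and Arrdc3 held none. Mlxip, which encodes MondoA, and its partner Mlx differed by 0.09 and 0.02. Myc averaged 2.24 ± 0.07 in Lck-off and 2.77 ± 0.28 in WT. Its Lck-off arrays all lay below the WT arrays, but it did not pass (-0.53, adjusted p = 0.0528 by limma). The mTOR activator gene Rheb fell by 0.37 and the AMPK subunit gene Prkag2 by 0.47, but Rheb stayed called only when Lck-off replicate 2 or WT replicate 2 was omitted, and Prkag2 only when Lck-off replicate 1 was (adjusted p otherwise up to 0.0948 and 0.144).

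Of 18 genes of the HIF pathway and its targets, 3 fell and 0 rose. Ndrg1, a hypoxia- and stress-induced gene, read -0.55, -1.51, -1.31 and -1.36 in Lck-off and 0.64, 1.32 and 1.10 in WT, a difference of -2.20 (SE 0.26, adjusted p = 0.00292 by limma), which was -1.58 with normexp and -1.54 in the authors' deposited table. Car12, a membrane carbonic anhydrase, averaged 0.34 ± 0.12 in Lck-off and 1.6 ± 0.16 in WT (-1.25, adjusted p = 0.000876), and Egln3, a hydroxylase that marks HIF for destruction and is itself induced by it, -3.03 ± 0.36 in Lck-off and -1.78 ± 0.36 in WT (-1.25, adjusted p = 0.0194). Egln3 was well above background on 3 of 4 Lck-off and 3 of 3 WT arrays, and its difference was -0.54 with normexp and -0.50 in the authors' deposited table. Its call ended when Lck-off replicate 3, WT replicate 2 or WT replicate 3 was omitted (adjusted p = 0.0574, 0.0741 and 0.0764 by limma). In the promoters searched, Egln3 held ACGTG at -229 and Car12 held neither HIF core. The other 15 did not pass, and the list's median was -0.05. Among them were the classical targets Bnip3 (-0.25, adjusted p = 0.137 by limma) and P4ha1 (0.25, adjusted p = 0.427). Ddit4 did not pass either (-0.74, adjusted p = 0.0675), though its Lck-off arrays all lay below the WT arrays.

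Amino acid supply genes also changed in part. Of 16 other amino acid carriers, Slc7a4 fell by 1.32 and Slc36a4, of the proton-assisted carriers, by 0.66, and Slc43a2, a leucine carrier (LAT4), rose by 0.41 (adjusted p = 0.0274 by limma), a call kept only when Lck-off replicate 4 was omitted (adjusted p otherwise up to 0.0939). The differences of Slc7a4 and Slc36a4 were -0.52 and -0.37 with normexp, and -0.52 and -0.33 in the authors' deposited table. Of 21 genes of the ATF4 amino acid response 4 fell: the serine pathway genes Shmt1 and Psat1 by 0.81 and 0.70, and the tRNA synthetase genes Nars and Gars by 0.47 and 0.30. The difference of Shmt1 was -0.52 with normexp and -0.51 in the authors' deposited table. Gars was not called with any 1 array omitted (adjusted p = 0.0546 to 0.136). Asns, the standard marker of that response, and Atf4 did not pass (0.29 and 0.03). Asns was dim, at -2.48 ± 0.49 in Lck-off and -2.76 ± 0.27 in WT, and well above background on 3 of 4 Lck-off arrays. Psph did not pass either (-0.30, adjusted p = 0.0507 by limma), though its Lck-off arrays all lay below the WT arrays. Trib3, Cebpb and Ddit3 of the same list had positive differences of 0.74, 0.83 and 0.37. They did not pass either (adjusted p = 0.0812, 0.193 and 0.188 by limma). Over the 21 genes 11 differences were positive and 10 negative, with a median of 0.01.

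**Figure D4:**
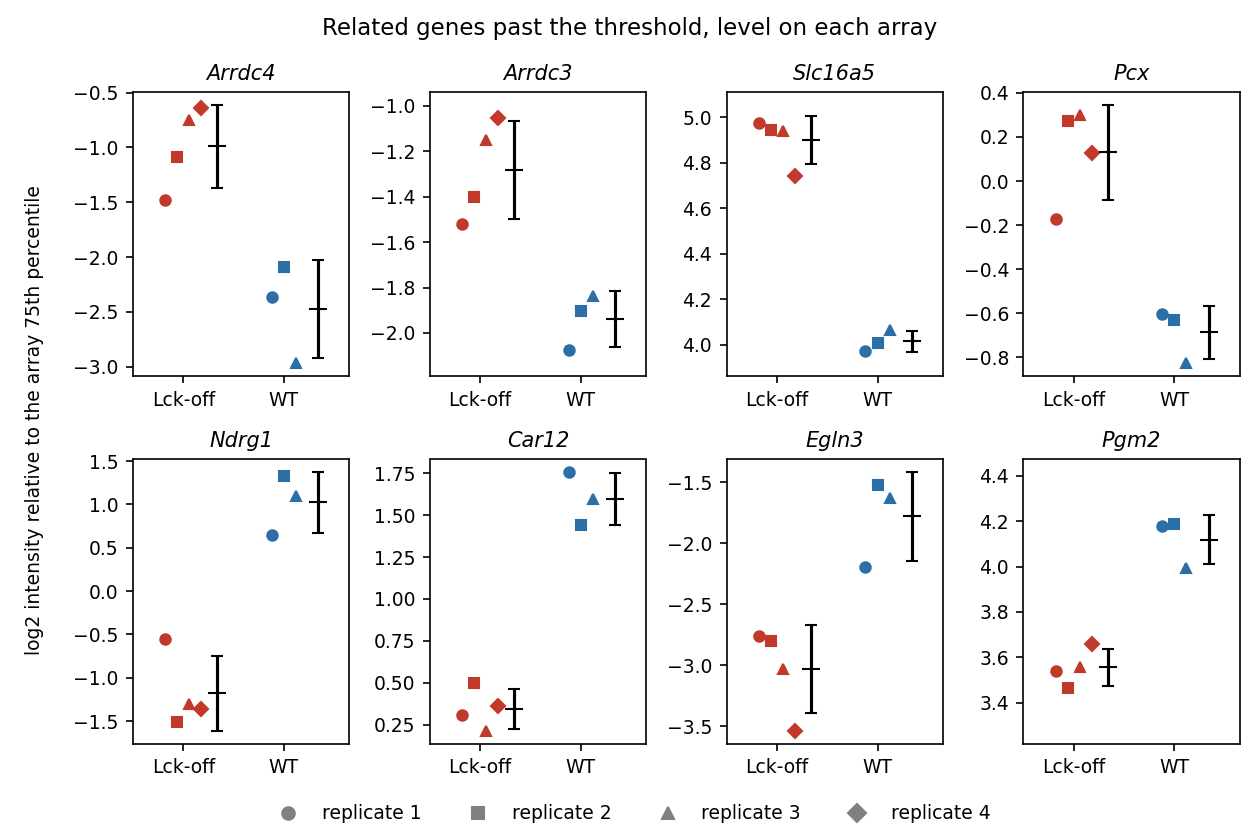
Level on each array of 8 of the 18 called genes from the lists of related genes, as log2 intensity relative to the 75th percentile of the array (own axis per panel, not starting at 0); red Lck-off on the left, blue WT on the right, symbols mark the replicate and black bars the mean and SD. Arrdc4, Arrdc3, Slc16a5 and Pcx are higher and Ndrg1, Car12, Egln3 and Pgm2 lower in Lck-off, with no overlap between the groups.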

How the data were processed

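Total RNA of 4 Lck-off and 3 WT samples was measured on 1 array each. Feature Extraction 10.7.3.1 gave the deposited intensity values, per the file headers, with spatial and multiplicative detrending switched on and probe positions on mm9; values were not scaled between arrays. The same software set the flags for detection, saturation and uneven spots. The authors' deposited table holds log2 values, as their range shows; limma is named, without a version or steps, in the submitters' processing notes.

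Processed intensities were divided by each array's 75th percentile over non-control spots and put on the log2 scale. Uneven spots were left out, repeated spots averaged, and probes kept where detected on 3 or more of the 7 arrays (25578 of 55681), and each gene name read from its brightest kept probe. The groups were compared with limma 3.58.1 under R 4.3.3, with moderated variance over 18231 genes; intervals are at 95%. Results for other probes of a member come from the same fit over all 25578 kept probes. In simulated data of 18231 genes, limma called 42% of genes shifted by 0.5 log2 units, 74% at 1, 86% at 2 and 100% at 3, and 4.43% of calls were false. Noise there was independent between genes. A smaller share of genes was shifted there than was called in the data. The percentages depend on that share, so they may differ for these data. The median SE of a difference was 0.11.

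The members, the lists of related genes and the markers were chosen with earlier results of these data known. Values on every array are given for called members, for the member of smallest adjusted p in a step with none, and for Slc2a1, Hk2, Pfkp, Pfkfb3, Pkm2, Ldha and G6pdx; other values were chosen after they were seen. Names are those of the array, matched to a GRCm38.p6 gene table for symbols and chromosomes; the first listed promoter of a gene was used for shares. Alternatives were other background correction, scaling and filters, the deposited table, probe averaging, moderation, blocks by replicate number or slide row, each row alone, and each array left out. Row 1 held Lck-off replicates 2 and 3 and WT replicate 3, row 2 the others. Listed genes not on the array numbered 6.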

Additional observations from a re-analysis of the deposited data

Results flagged for a closer look

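Of the 36 members, 1 had an array far from the others of its group: Hk2 read -3.09 on Lck-off replicate 3, while the other Lck-off arrays read between -6.02 and -5.52. The gap to the nearest array was 0.83 of the group's range, past the critical value of Dixon's test, which chance passes in about 1 group in 20. The probe was well above background on 1 of 4 Lck-off and 2 of 3 WT arrays.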

How the results depend on the processing

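The count of called genes was 1304 to 1984, and of members 5 to 7 lower, under normexp correction, quantile or median scaling, probes well above background on all 7 arrays (35 members tested), the deposited table, probe averaging, the slide row as a block and trended robust moderation; 1 member was higher in each, except 0 with the mean of all kept probes. With no filter on dim probes 717 genes changed, 2 members lower (Aldoc and Slc16a3) and 0 higher. Leaving out 1 array gave 960 to 1405 genes, 3 to 6 members lower and 0 to 2 higher.

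The replicate block gave 374 genes, 2 members lower (Aldoc and Slc16a3, adjusted p = 0.0278 and 0.0447 by limma) and 0 higher. Lck-off replicate 4 had no WT array of its number, so it was alone in its block and added nothing to the differences. Those of Aldoc and Slc16a3 were -1.55 and -0.96, the same as with Lck-off replicate 4 left out. Same-numbered arrays did not deviate together (correlations 0.11, 0.05 and -0.01), and Lck-off replicate 2 correlated best with WT replicate 3 (0.14), so these numbers, those of the titles, give no pairing. The WT files carry numbers 1 higher than their titles; matched by those, the correlations were -0.17, -0.05 and -0.07, and no block was run on them. Within slide row 1 alone 105 genes and 0 members lower or higher were called by limma, and within row 2 alone 0, 0 and 0, with 2520 and 2711 genes at an unadjusted p under 0.05. The cause of these changes, beyond the number of arrays and genes tested, was not tested.

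Members that did not pass changed sign in places. Slc2a1 was 0.0162 in row 2 alone. In row 1 alone Hk1 was 0.16, Gpi1 0.15, Pfkm -0.0131, Eno3 0.14, Taldo1 -0.0147 and Slc38a2 -0.17. G6pdx was 0.0425 in row 2 alone. With all probes averaged Hk1 was 0.0911 and Slc7a5 0.0244. In the authors' deposited table Eno3 was 0.00199 and G6pdx 0.0105. With the replicate block Eno3 was 0.0057, G6pdx 0.0266 and Slc38a2 -0.0664, and with median scaling Taldo1 was -0.00022. With each array left out, Gpi1 ran from -0.0859 to 0.0126, Pfkm from -0.0233 to 0.14, Gapdh from -0.0281 to 0.11, Eno3 from -0.0932 to 0.0691, G6pdx from -0.0604 to 0.0403, Taldo1 from -0.0231 to 0.032 and Slc38a2 from -0.0664 to 0.10. No called member changed sign. Hk2, near background, is limited by signal: its difference ran from -2.54 to -0.27 over these settings other than single rows.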
